A study of Mus musculus with 5 samples.

Results

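The heat shock and chaperone genes described here are 10 genes chosen by name: Hspa1a, Hspa1b, Hspa8, Hsph1 and Dnajb1 of the cytosolic HSP70 system, Hsp90aa1 and Hsp90ab1 of the cytosolic HSP90 system, Hspa5 and Hsp90b1 of the endoplasmic reticulum (ER), and Hspb1 of the small heat shock proteins. The list is one of names with no threshold on a measured value, although it was drawn up with earlier results of these data known. All 10 were found under these symbols among the 23420 genes of the deposited files, and all 10 passed the filter for expressed genes, a mean value of at least 5 over the libraries, which 13550 genes passed.

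Chaperones bind proteins that are not yet folded or have lost their fold. HSP70 proteins hold short hydrophobic stretches in cycles of ATP hydrolysis that J-domain proteins (HSP40) start and HSP110 proteins help to end, HSP90 proteins act later on kinases, steroid receptors and other near-native clients, and small heat shock proteins keep unfolded proteins soluble without ATP. In the cytosol the inducible members are switched on by the transcription factor HSF1 through heat shock elements, whereas in the ER a separate pathway, the unfolded protein response, raises BiP (Hspa5), GRP94 (Hsp90b1) and the folding enzymes through the ER stress response element, or ERSE. Neurons hold large amounts of the constitutive forms HSC70 (Hspa8) and HSP90.

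The samples were polyA RNA from the microdissected dentate gyrus (DG) of wild-type male CD1 mice, an outbred strain, 4 months old per the labels, after 4 weeks in different housing. LD mice lived alone with a running disk that was locked in place. CE (complex environment) mice lived 3 to a cage with a locked disk and tunnels, and RUN mice lived alone with a disk that turned. L-RUN and H-RUN were the RUN mice that ran the shortest and the longest distances. All 5 groups had the same genotype, strain and sex, and CE differed from LD in company as well as in tunnels, which cannot be told apart.

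Each group is 1 library made from pooled RNA, of 8 mice for LD, CE and RUN and of 4 mice for L-RUN and H-RUN, so no group has a replicate and no p-value can be given. The values are regularized logs on the log2 scale, in which low counts are pulled toward the mean of the gene, so that the differences of weakly expressed genes are understated. The depth of the libraries is unknown because the files hold no counts. A difference between libraries was called at 0.3 or more in size, a 1.23-fold difference. Because the 8 mice of the RUN pool were those split into L-RUN and H-RUN, the departure of RUN from a mixture of the latter gave a technical standard deviation (SD) of a difference, between 0.022 for the most abundant genes and 0.047 for weaker ones. This SD holds no differences between mice, and a difference beyond it has not been shown to exceed the spread between animals. Of the dentate granule cell markers, 10 of 10 were expressed, with a summed log2 level between 15.33 and 15.47 in the 5 libraries. Single markers moved more, with Prox1 at -0.41 and C1ql2 at 0.37 in L-RUN minus LD. Of 10 pyramidal cell markers of CA1 and CA3, the 9 that were found also passed the filter. Passing it therefore cannot check the tissue label. In these bulk samples, fewer cells of a type and less RNA per cell cannot be told apart.

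HSC70 and the cytosolic HSP90 genes were the most abundant of the 10 once each value was scaled to transcript length. In LD the length-scaled log2 level (the regularized log minus the log2 of the longest transcript in kb) was 14.36 for Hspa8, 14.15 for Hsp90ab1 and 13.38 for Hsp90aa1. The ER pair and the HSP110 gene followed, at length-scaled levels of 11.98 for Hsp90b1, 11.58 for Hspa5 and 11.33 for Hsph1. Dnajb1, Hspb1 and the inducible HSP70 genes were lowest. Their length-scaled levels were 8.61 for Dnajb1, 7.21 for Hspa1b, 7.04 for Hspb1 and 6.15 for Hspa1a. With the longest protein-coding transcript in place of the longest transcript, Hsph1 stood at 11.66, above Hspa5, and the rest of the order was unchanged.

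**Figure D1:**
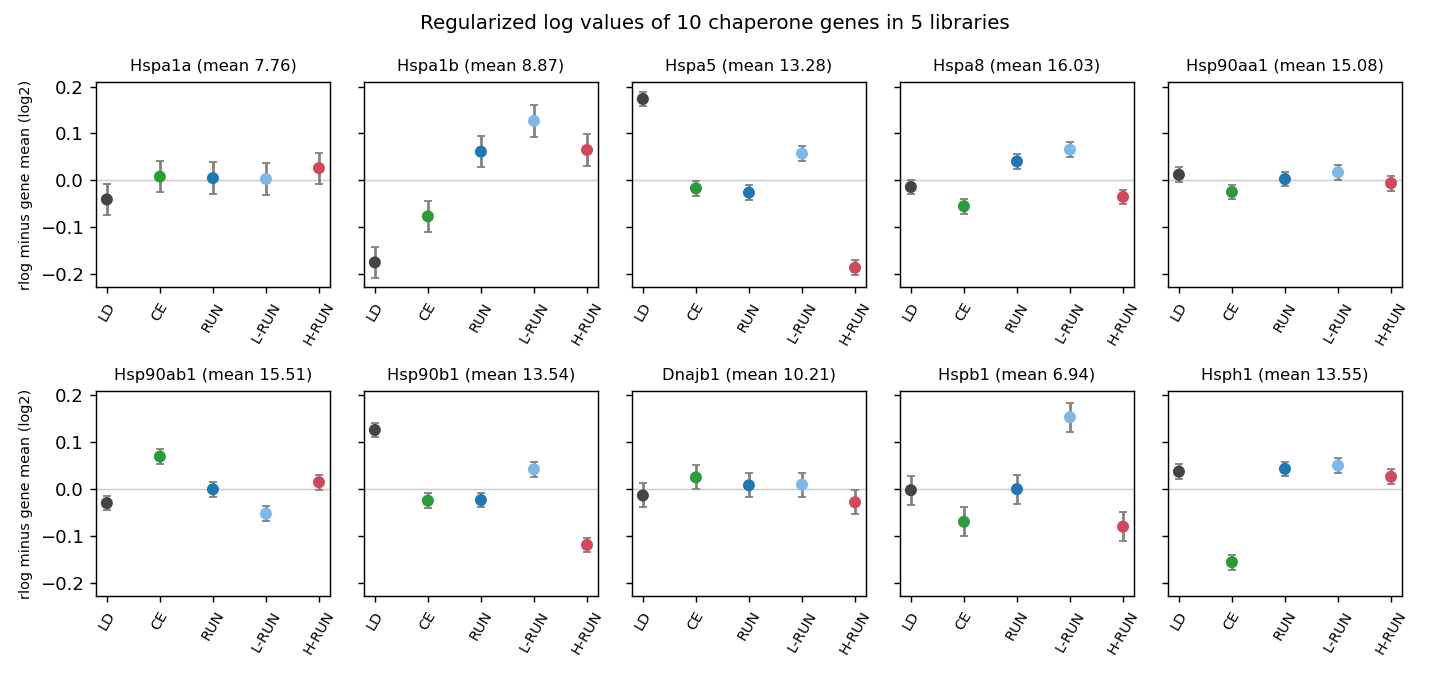
Regularized log value of each of the 10 genes in the 5 libraries, drawn as the difference from the mean of the gene over the libraries (log2, same axis in every panel). Points are single libraries, and bars are the technical SD of 1 value, the SD of a difference divided by the square root of its 2 libraries. Hspa5 and Hsp90b1 both have LD highest and H-RUN lowest, Hspa1b is lowest in LD, Hsph1 stands low in CE, and Hspa1a, Hsp90aa1 and Dnajb1 stay near their means.

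How far a gene varied over the libraries did not follow its level. Hspa5 had a range of 0.36 from its highest to its lowest library, wider than the range of 97.0% of expressed genes. Hspa1b followed with 0.30 (95.0%), Hsp90b1 with 0.25 (90.4%), Hspb1 with 0.23 (88.7%) and Hsph1 with 0.21 (83.7%). The other genes were in the middle or at the bottom of this scale: the ranges of Hsp90ab1 and Hspa8 were both 0.12, and those of Hspa1a, Dnajb1 and Hsp90aa1 were 0.067, 0.053 and 0.042, the last being wider than the range of 3.28% of expressed genes. Within the set, the abundant Hsp90aa1 was thus the steadiest gene in these values and the abundant Hspa5 the most variable. After quantile normalization Hsp90aa1 was not the steadiest, with -0.12 in H-RUN minus L-RUN.

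Few of the 10 genes passed the threshold in any comparison. In CE minus LD none was higher or lower by 0.3, beside 0.332% of expressed genes called higher and 0.266% called lower. In RUN minus LD again none was called, beside 0.362% higher and 0.952% lower. In L-RUN minus LD, 1 gene, Hspa1b, was called higher and none lower, beside 0.797% and 2.33% of expressed genes. In H-RUN minus LD, 1 gene, Hspa5, was called lower and none higher, where 0.472% of expressed genes were called lower and 0.354% higher. In H-RUN minus L-RUN, none of the 10 was called, beside 0.974% higher and 0.561% lower. The 4 comparisons with LD share the LD library, so its own error enters all of them, and the comparison of H-RUN with L-RUN is the one that does not use it.

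The 10 genes differed from LD in both directions. Their median difference from LD was 0.02 in L-RUN, 0.01 in RUN, -0.02 in H-RUN and -0.04 in CE, beside medians of all expressed genes between -0.004 and -0.001. In H-RUN minus L-RUN 8 of the 10 genes were below 0, beside 48.6% of expressed genes, and their median of -0.05 was the largest in size of the 5 comparisons, beside 0.003 for expressed genes. Between 4 and 5 of the 10 genes differed by more than 2 technical SDs in each comparison, which is close to the share of all expressed genes that did so, 34.5% to 49.5%. In RUN, 9 of the 10 genes lay between L-RUN and H-RUN, as did 58.3% of expressed genes, the exception being Hspa1b. The departure of RUN from the mixture was at most 0.041 in size, for Hspb1.

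**Figure D2:**
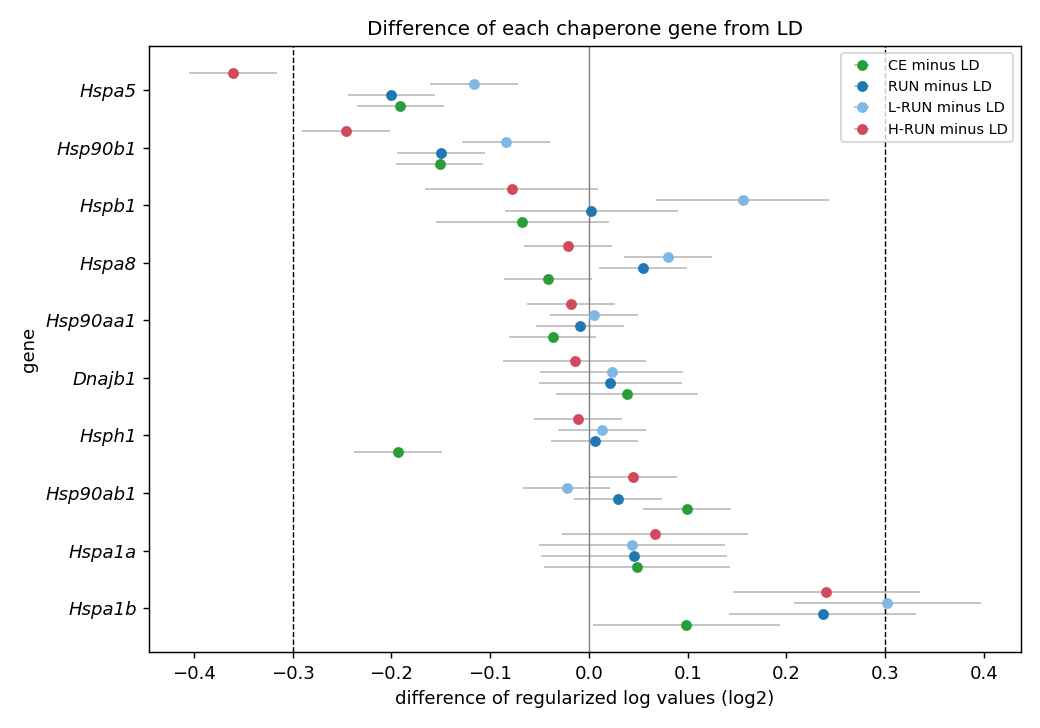
Difference of each of the 10 genes from LD in CE, RUN, L-RUN and H-RUN (regularized log values, log2). Points are differences between 2 libraries, bars are 2 technical SDs to each side, and dashed lines mark the threshold of 0.3. Hspa5 in H-RUN (-0.36) lies past the lower line and Hspa1b in L-RUN (0.30) lies on the upper one.

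Hspa5 encodes BiP (GRP78), the HSP70 of the ER and the sensor-bound chaperone whose release starts the unfolded protein response. The gene is at chr2:34771970-34777547 on the plus strand of GRCm38, with 9 exons in its longest coding transcript. Its regularized log was 13.46 in LD, 13.34 in L-RUN, 13.26 in both CE and RUN, and 13.09 in H-RUN. LD was the highest library and H-RUN the lowest, and in this order only CE and RUN lay within 2 technical SDs of each other. The differences from LD were -0.36 in H-RUN, -0.20 in RUN, -0.19 in CE and -0.12 in L-RUN. On the linear scale that is a change of -22.1% in H-RUN, -12.9% in RUN, -12.4% in CE and -7.77% in L-RUN. The H-RUN difference was -16.2 technical SDs and ranked 33 from the lowest of the 13550 expressed genes. In the comparison without LD, H-RUN was lower than L-RUN by a difference of -0.24, or -10.99 technical SDs, which did not reach the threshold. Against the average of LD and CE the H-RUN difference was -0.27 and was not called, and the RUN and L-RUN differences were -0.10 and -0.02. No stretch of 50 bases of its longest transcript is shared with another annotated gene.

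Hsp90b1, which encodes GRP94, the HSP90 of the ER, also had LD highest and H-RUN lowest, with smaller differences. It lies at chr10:86690209-86705509 on the minus strand, with 18 exons in the longest coding transcript. The regularized log was 13.67 in LD, 13.59 in L-RUN, 13.52 in RUN, 13.52 in CE and 13.42 in H-RUN. L-RUN was again next to LD, and only RUN and CE, which stood in the other sequence in Hspa5, could not be separated by 2 technical SDs. The differences from LD were -0.08 in L-RUN, -0.15 in RUN, -0.15 in CE and -0.25 in H-RUN. The L-RUN value was -0.01 both after quantile normalization and against the average of LD and CE, and the RUN value was -0.10 and -0.07 under these. None was called, although the H-RUN difference was -11.07 technical SDs and ranked 125 from the lowest. Of the other 9 members, Hsp90b1 had the pattern nearest to that of Hspa5, with a root mean square difference of 0.038 between their values after each was centred on its mean. Among all expressed genes the nearest to Hspa5 was Dsg2, which encodes the desmosomal cadherin desmoglein 2, at 0.015. Its regularized log was 8.88 in LD, 8.77 in L-RUN, 8.66 in CE, and then 8.65 in RUN before 8.52 in H-RUN. The next nearest were 2900052N01Rik (0.030) and Tmem181b-ps (0.035), all chosen for this likeness over 5 libraries.

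The ERSE is written as CCAAT, any 9 bases and CCACG, and was searched on both strands of the 300 bases from 250 before to 50 after each RefSeq start site. It was found in 39 of 32851 such windows, or 0.119%, and the windows of both Hspa5 and Hsp90b1 hold it. The stretches around the matches are shown because these are the members with the lowest differences in H-RUN minus LD. They run 5′ to 3′ along the gene in RefSeq's GRCm38.p6, with the matches in capitals, and Hsp90b1 holds 1 match on each strand.
Hspa5, chr2:34772005-34772063, plus strand: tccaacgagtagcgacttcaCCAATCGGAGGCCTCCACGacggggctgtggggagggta
Hsp90b1, chr10:86705513-86705676, minus strand: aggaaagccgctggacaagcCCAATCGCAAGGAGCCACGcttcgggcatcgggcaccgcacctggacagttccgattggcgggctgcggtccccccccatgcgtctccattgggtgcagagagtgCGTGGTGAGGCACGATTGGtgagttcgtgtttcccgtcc
In Hspa5 the match begins at position -65 from the start site. A match of these letters is a description of the sequence and not a measured binding site.

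The wider list of ER chaperones and folding enzymes, 27 genes that were all expressed and that include Hspa5 and Hsp90b1, was lower in H-RUN than in LD for 24 of 27 genes, beside 52.0% of expressed genes. Its median was -0.09 in H-RUN minus LD, and -0.08 without the 2 members, where the median of expressed genes was -0.004. The called genes were 2, Hspa5 and Dnajc3 (-0.35), which encodes the J-domain cochaperone P58IPK. Below the threshold came the disulfide isomerase genes Pdia6 (-0.28), Pdia4 (-0.25) and Pdia3 (-0.16), the nucleotide exchange factor gene Hyou1 (-0.22), the secreted factor gene Manf (-0.21), the lectin chaperone genes Canx (-0.21) and Calr (-0.20), Sdf2l1 (-0.18) and the BiP cochaperone gene Dnajb11 (-0.16). The 3 genes above 0 were Cnpy2 (0.12), Sdf2 (0.10) and Sil1 (0.04). These 12 genes below the threshold were named after their values were seen.

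H-RUN was the lowest of the 5 libraries for 16 of the 27 ER genes (59.3%), where it was lowest for 15.7% of expressed genes. LD was the highest for 17 (63.0%, beside 28.1%), and 9 genes (33.3%, beside 3.97%) had both LD highest and H-RUN lowest, as Hspa5 and Hsp90b1 did. The same list in the other comparisons had medians of -0.03 in L-RUN, -0.08 in RUN and -0.08 in CE, each minus LD, with 18, 19 and 21 of the 27 genes below 0. In H-RUN minus L-RUN, where LD plays no part, 22 of 27 genes were below 0 beside 48.6% of expressed genes, with a median of -0.08. Some other chaperone lists leaned the same way in this comparison. Below 0 were 11 of 13 chaperonin and prefoldin genes (median -0.03) and 13 of 17 HSP90 and co-chaperone genes (-0.04). So were 8 of 11 mitochondrial genes (-0.01) and 4 of 5 small heat shock protein genes (-0.10). The remaining lists were nearer to even. Below 0 were 14 of 24 cytosolic HSP70, HSP110 and HSP40 genes (-0.02) and 12 of 22 regulators of the unfolded protein response and ER degradation (-0.02). Of the nucleotide exchange factors and heat shock factors 6 of 12 were (-0.004). The only ER gene called there was Serpinh1, encoding the collagen chaperone HSP47, at -0.34, which had a difference of 0.30 in L-RUN minus LD, just under the threshold, and of -0.04 in H-RUN minus LD.

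**Figure D3:**
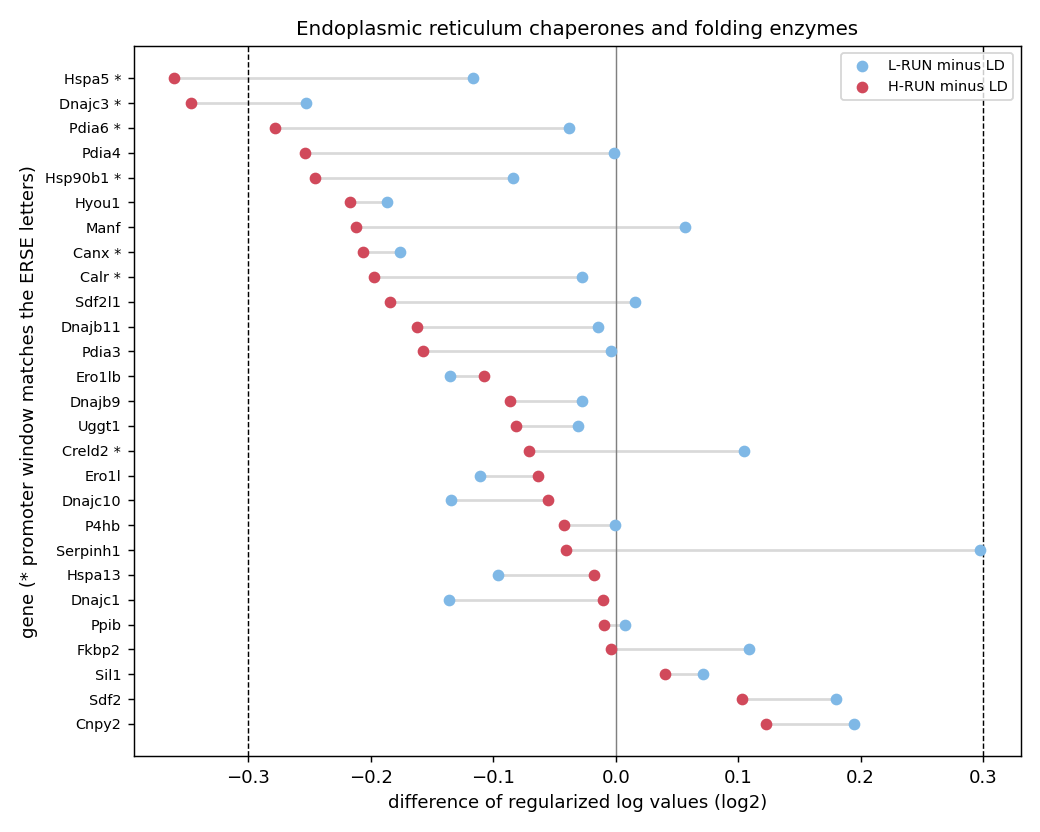
Difference from LD of the 27 expressed ER chaperone and folding enzyme genes in L-RUN and H-RUN (regularized log values, log2), ordered by H-RUN. Points are differences between 2 libraries joined by a line per gene, dashed lines mark the threshold of 0.3, and stars mark genes whose RefSeq promoter window matches the ERSE letters. In H-RUN 24 of the 27 genes lie below 0, and Hspa5 and Dnajc3 lie past the lower line.

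A promoter window was matched for 21 of the 27 ER genes, and 7 of them (33.3%) hold the ERSE: Hspa5, Hsp90b1, Dnajc3, Pdia6, Canx, Calr and Creld2. All 7 were below 0 in H-RUN minus LD, with a median of -0.25, and the other 14 had a median of -0.05. In H-RUN minus L-RUN the medians were -0.17 with the motif and -0.07 without it. Within the ER list the same split was seen in the other groups minus LD. The medians with and without the motif were -0.15 and -0.06 in CE, -0.15 and -0.04 in RUN, and -0.08 and -0.0008 in L-RUN. Over all 10058 expressed genes with a matched window, 17 held the ERSE, and 15 of the 17 were below 0 in H-RUN minus LD with a median of -0.11, beside -0.003 for the genes without it. The 17 include the 7 ER genes above, so they are not a separate set of values. Leaving out Hspa5 and Hsp90b1, the median of the remaining 15 was -0.08, and 5 of these 15 were ER genes already named. In the other groups minus LD the median of these 15 was smaller, at -0.03 in CE, -0.01 in RUN and -0.004 in L-RUN. The genes without the motif had medians of -0.001, -0.0005 and -0.002 there. This split by motif was made after the values of Hspa5 were known and was not tested.

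The regulators of the unfolded protein response and of ER degradation were mixed in direction. Of 23 listed genes 22 were expressed, all but Trib3, and none was called in any comparison. In H-RUN minus LD 12 were below 0 and 10 above, with a median of -0.02. Atf6, the membrane-bound activator, was -0.24 in CE and -0.26 in L-RUN, each minus LD, and Ern1, which encodes the IRE1 sensor, was -0.24 in L-RUN minus LD. Xbp1, which encodes the transcription factor spliced by IRE1, was the lowest of the list in H-RUN minus LD at -0.21 and was named for that value. Its regularized log was 11.37 in L-RUN, 11.36 in LD and 11.15 in H-RUN, its lowest library. H-RUN minus L-RUN of Xbp1 was -0.22. None of the 22 genes had both LD highest and H-RUN lowest, which is near the share of expressed genes that did, 3.97%.

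Hspa8 encodes HSC70, the constitutive HSP70 of the cytosol, at chr9:40800984-40810087 on the plus strand. From high to low, the regularized log was 16.10 in L-RUN, 16.07 in RUN, 16.02 in LD, 15.998 in H-RUN and 15.98 in CE. RUN and L-RUN were above the other 3 libraries by more than 2 technical SDs, and the differences were small. L-RUN minus LD was 0.08, or 5.68%, and H-RUN minus L-RUN was -0.10. Of the 50-base windows of its longest coding transcript 73.2% occur in transcripts of other annotated genes, chiefly the pseudogene Gm15459, and how the counting treated reads that map to several places is not given in the sources used here.

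Hspa1a and Hspa1b encode the inducible HSP70 and lie near each other on the minus strand of chromosome 17, at chr17:34969190-34972156 and chr17:34956436-34959238, each as 1 exon. They are near-identical copies: 60.3% of the 50-base windows of Hspa1a and 62.3% of those of Hspa1b occur in another gene, nearly all of them in the other copy. Their separate values therefore rest in part on how shared reads were assigned, while the other windows occur in no other annotated gene. In the promoter window 4 of 300 bases differ between them. A heat shock element was searched as alternating GAA and TTC units with 2 bases between them, on both strands. The windows of both genes hold a match of 2 units at position -104 and none of 3 units, and the stretch around it is the same in both, shown here with the 2 units and their gap in capitals.
Hspa1a, chr17:34972233-34972280, minus strand: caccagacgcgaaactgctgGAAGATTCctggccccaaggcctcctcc
Hspa1b, chr17:34959315-34959362, minus strand: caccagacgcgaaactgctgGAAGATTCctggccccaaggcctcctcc
Such a match of 2 units is common, in 15.1% of all windows, and one of 3 units is found in 0.603%.

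The regularized log of Hspa1b was 8.998 in L-RUN, 8.94 in H-RUN, 8.93 in RUN, 8.79 in CE and 8.70 in LD. The 3 running libraries were above CE and CE above LD by more than 2 technical SDs, and the running libraries could not be separated from each other. The differences from LD were 0.30 in L-RUN, 0.24 in H-RUN, 0.24 in RUN and 0.10 in CE, or 23.3%, 18.1%, 17.8% and 7.06%. The H-RUN difference, though below the threshold, ranked 90 from the highest of 13550 genes and the called L-RUN difference ranked 105. The L-RUN difference barely passed the threshold, at 0.302. It was 0.29 with the trend of the differences along transcript length removed and 0.25 against the average of LD and CE, and was called in neither. H-RUN minus L-RUN was -0.06, within 2 technical SDs.

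Hspa1a did not show this order. It had a regularized log of 7.79 in H-RUN, 7.77 in L-RUN, 7.77 in RUN, 7.77 in CE and 7.72 in LD. LD was the lowest library here too, but every difference was between 0.02 and 0.07 and within 2 technical SDs. Hspa1b minus Hspa1a thus differed between libraries by up to 0.26. Among expressed genes the pattern nearest to Hspa1b was that of Sh2d5 (root mean square difference 0.013). Next came Il15ra (0.014), encoding the alpha chain of the IL15 receptor, and Cebpb (0.017), encoding the transcription factor C/EBPβ. All were chosen for this likeness over 5 libraries. The nearest other member was Hspa8, at 0.090.

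Hsph1, the HSP110 gene, was set apart by CE. It lies at chr5:149614287-149636376 on the minus strand and shares no 50-base window with another gene. The regularized log was 13.60 in L-RUN, 13.59 in RUN, 13.58 in LD and 13.57 in H-RUN, against 13.39 in CE. The 4 libraries from singly housed mice lay within 2 technical SDs of their neighbours in the order and CE lay below the lowest of them by 0.18, or 8.22 technical SDs. CE minus LD was -0.19, a change of -12.5%, and was not called. It was the lowest value of the 10 genes in this comparison, next to Hspa5 (-0.19). After quantile normalization it was -0.14 and with the length trend removed -0.17, above Hspa5 in both (-0.17 and -0.19). After quantile normalization L-RUN and RUN minus LD of Hsph1 were 0.08 and 0.05, each beyond 2 technical SDs. The promoter window of Hsph1 was the only one of the 7 members with a matched window to hold a heat shock element of 3 units.

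Dnajb1, which encodes the HSF1-inducible cofactor HSP40 of HSP70, did not separate any libraries. It lies at chr8:83608193-83612653 on the plus strand. The 5 values ran from 10.24 in CE through 10.22 in L-RUN, 10.22 in RUN and 10.20 in LD to 10.18 in H-RUN on the regularized log scale. In the 5 comparisons its differences were between -0.04 and 0.04 and within 2 technical SDs.

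In the list of cytosolic HSP70, HSP110 and HSP40 genes, 24 of 24 expressed, 3 genes were called in L-RUN minus LD. Hspa1b was higher, and Dnajb14 (-0.39) and Dnajc27 (-0.34) were lower. With the length trend removed, Dnajb14 was -0.26 and Dnajc27 -0.296, and neither was called. Although it stands on this list, Dnajb14 encodes a J-domain protein anchored in the ER membrane, and Dnajc27 encodes a small GTPase with a J domain. Dnajb14 was also called higher in H-RUN minus L-RUN, at 0.30, but not with the length trend removed (0.23). The median of the list was 0.02 in L-RUN, 0.002 in RUN, -0.02 in H-RUN and -0.05 in CE, each minus LD, and outside L-RUN no gene of it was called against LD.

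The cytosolic HSP90 genes differed little. Hsp90aa1, the inducible form, lies at chr12:110690605-110702728 on the minus strand. The regularized log was 15.10 in L-RUN, 15.09 in LD, 15.08 in RUN, 15.08 in H-RUN and 15.06 in CE, and no neighbours in this order differed by 2 technical SDs. H-RUN minus L-RUN of Hsp90aa1 went from -0.02 to -0.12 after quantile normalization. Of its 50-base windows 58.5% occur in other genes, chiefly the pseudogene Gm12346. Hsp90ab1, the constitutive form at chr17:45567775-45573271 on the minus strand, had a regularized log of 15.58 in CE, 15.53 in H-RUN, 15.51 in RUN, 15.48 in LD and 15.46 in L-RUN. CE was highest, above H-RUN by more than 2 technical SDs, and CE minus LD was 0.10, or 7.13%. After quantile normalization CE minus LD was 0.05, and H-RUN minus LD went from 0.04 to -0.03. Of the 17 genes for HSP90 and its co-chaperones, all expressed, none was called in any comparison. The widest ranges were those of Chordc1 (CE minus LD -0.22) and Ptges3, the p23 gene (H-RUN minus L-RUN -0.15).

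Hspb1 encodes HSP27 (HSP25 in the mouse), which guards actin filaments as well as unfolded proteins, and lies at chr5:135887919-135889563 on the plus strand. Its regularized log was 7.09 in L-RUN, 6.94 in RUN, 6.94 in LD, 6.87 in CE and 6.86 in H-RUN. L-RUN stood above the other 4 libraries, which lay within 2 technical SDs of their neighbours. L-RUN minus LD was 0.16 and H-RUN minus L-RUN was -0.23, or -5.34 technical SDs, and neither was called. With the length trend removed they were 0.05 and -0.18, the transcript being the shortest of the 10 at 930 bases. Of its windows 51.6% occur in the pseudogene Hsp25-ps1.

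Only 5 of 9 small heat shock protein genes were expressed. Hspb2, Hspb3, Hspb7 and Cryaa were below the filter. Hspb8, encoding the partner of BAG3 in chaperone-assisted autophagy, had the same order as Hspb1 at its ends, with 0.20 in L-RUN minus LD, -0.14 in H-RUN minus LD and a called -0.34 in H-RUN minus L-RUN. It was the only gene of the list called in any comparison. L-RUN was the highest library for 4 of the 5 genes.

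The summed level of leptomeningeal fibroblast markers, 14 of 14 expressed and none at 0, was highest in L-RUN and lowest in H-RUN, as Hspb1, Hspb8 and Serpinh1 were. This summed log2 level was 12.43 in L-RUN, 12.05 in RUN, 11.98 in CE, 11.81 in LD and 11.63 in H-RUN. Not every marker had this order: Dcn was highest in CE, Foxc1 was lowest in CE, and Col1a1, Col1a2 and Fmod were lowest in LD. Other chaperone list genes, among them Manf, Xbp1 and Hsf1, also had L-RUN highest and H-RUN lowest. In L-RUN minus LD 9 of 14 were called higher and none lower, with a median of 0.61, and in H-RUN minus L-RUN 11 of 14 were called lower. The part of these cells in the values of Hspb1, Hspb8 and Serpinh1 was not tested. In H-RUN minus LD, the comparison in which Hspa5 was called, the leptomeningeal median was -0.01 with 2 of 14 called lower. Microglia markers, 8 of 8 expressed, had a median of -0.11 with 7 of 8 below 0 and none called. Granule cell markers had a median of -0.09, as the ER list did, with 7 of 10 below 0 and 1 called higher. The medians of the pyramidal, endothelial and mural, astrocyte, oligodendrocyte and choroid plexus lists lay between -0.01 and 0.03. The part of any of these cells in the ER genes was not tested. Marker lists other than the leptomeningeal one also moved in L-RUN minus LD, the comparison in which Hspb1 was highest and Hspa1b was called. Pyramidal cell markers had 5 of 9 expressed genes called lower and astrocyte markers 2 of 8, with 7 of 8 below 0. With the length trend removed those 2 astrocyte markers, Slc1a2 (-0.21) and Slc1a3 (-0.27), were not called. Oligodendrocyte markers had 8 of 8 below 0 with a median of -0.18 and none called, and granule cell markers had 2 of 10 called higher and 1 lower. The part of these cells in the values of Hspb1 and Hspa1b was not tested either. Of the choroid plexus markers 4 of 8 were expressed, with Folr1, Clic6, Kcnj13 and Otx2 below the filter.

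The remaining chaperone lists held no called gene in any of the 5 comparisons. Of the nucleotide exchange factors and heat shock factors, 12 of 12 expressed, the widest ranges were those of St13 (L-RUN minus LD -0.22) and Bag4 (CE minus LD -0.19). Hsf1, the regulator of the cytosolic response, named after its values were seen, was 0.13 in L-RUN minus LD and -0.18 in H-RUN minus L-RUN. Of the mitochondrial chaperones, 11 of 11 expressed, Hspe1 had the highest value in L-RUN minus LD (0.23) and Clpp in CE minus LD (0.17). With the length trend removed each was 0.13. Of the chaperonin CCT and prefoldin genes, 13 of 14 were found and expressed, and Cct6a (-0.25) and Pfdn2 (0.21) were the extremes in L-RUN minus LD. The medians of these 3 lists lay between -0.03 and 0.06 in all comparisons. In all, 131 of 137 genes on the chaperone lists were expressed.

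**Figure D4:**
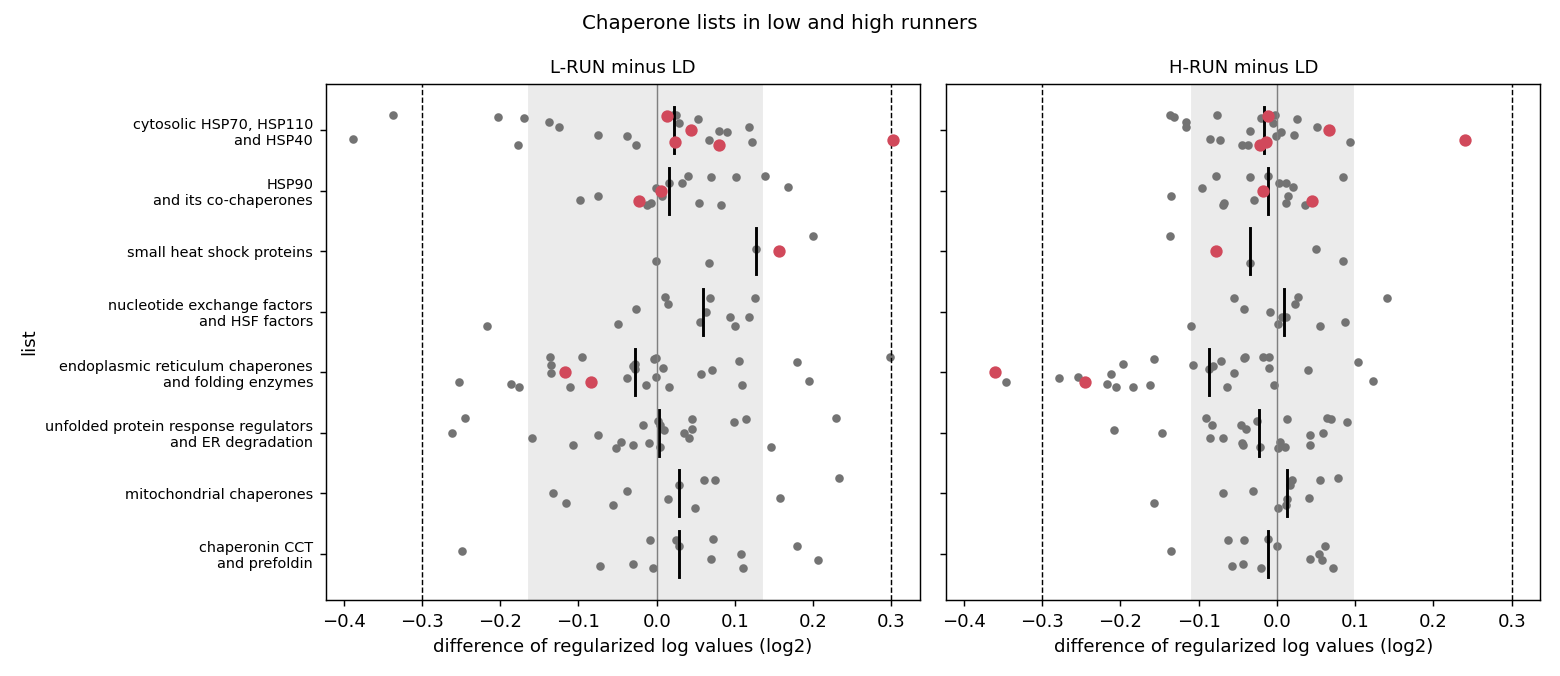
Difference from LD of the expressed genes of 8 chaperone lists in L-RUN and H-RUN (regularized log values, log2). Large red points are the 10 members, small grey points the other genes of each list, vertical bars the list medians, the grey band the 10th to 90th percentile of all expressed genes and dashed lines the threshold of 0.3. In H-RUN the ER list has its median at -0.09, and the medians of the other 7 lists lie between -0.03 and 0.01.

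Genes of the other stimuli that housing could bring were read beside the chaperones. Of 13 glucocorticoid response genes, all expressed, Sgk1 was called higher in RUN (0.35) and H-RUN (0.55), each minus LD, and was 0.26 in L-RUN. Mt1 was called higher in CE (0.39), RUN (0.31) and L-RUN (0.41), each minus LD, and was 0.26 in H-RUN. With the length trend removed Mt1 was 0.24 in RUN and not called there, and was still called in CE (0.35) and L-RUN (0.31). Of 15 immediate early genes 14 were expressed, and the called ones were lower: Arc in RUN (-0.33) and L-RUN (-0.45), and Egr3 (-0.33) and Nr4a1 (-0.35) in L-RUN, each minus LD. Neither list had a called gene in H-RUN minus L-RUN, but several came close. Arc (0.299), Egr3 (0.29), Sgk1 (0.29) and Nr4a1 (0.26) were higher in H-RUN, below the threshold. In that comparison 3 of 14 immediate early genes and 7 of 13 glucocorticoid response genes were below 0.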

How the data were processed

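Polyadenylated RNA of the dentate gyrus was sequenced (TruSeq RNA) from 5 pools, 1 per group. Per the study's methods and processing notes, the authors trimmed adapters, aligned reads to mm10 with TopHat2 2.0.10, assigned them to RefSeq genes by HTSeq counting, and deposited the regularized log values (log2 scale) of DESeq2 1.10.1, with 1 file per library, from base calls made with CASAVA 1.8.2. Read length, strand setting and depth are not given in the sources used here.

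From these values differences between libraries were taken (Python 3.11.15, pandas 2.3.3, numpy 2.4.6) over genes with a mean of at least 5, and called at 0.3, the cut-off of the study. With 1 library per group no test was made. The technical SD came from RUN minus the log2 of the mean of the linear L-RUN and H-RUN values, per decile of expression, and was tested on simulated data. Lengths, coordinates and shared 50-base windows came from the GENCODE annotation of GRCm38, and promoters from RefSeq's GRCm38.p6, in which 7 of the 10 genes matched (not Hspa8, Hsp90aa1 and Hsp90ab1). Named genes were the 10 members, genes of each list called in at least 1 comparison (otherwise the 2 of widest range), and the 3 expressed genes nearest in pattern to each called member. The members and lists were chosen with earlier results of these data known. Alternatives were other cut-offs, scalings, filters, a baseline of LD and CE, and removal of the lowess trend of differences with length (statsmodels 0.14.6).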

Additional observations from a re-analysis of the deposited data

How the results depend on the processing

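The number of the 10 genes called moved with the cut-off. At a cut-off of 0.2 it was 1 in RUN minus LD and 2 in H-RUN minus L-RUN, where 0.3 gave 0, and 3 in H-RUN minus LD, where 0.3 gave 1. At a cut-off of 0.4 it was 0 in both L-RUN and H-RUN minus LD. With LD and CE averaged into 1 baseline it was 0 in L-RUN as in H-RUN, and with the length trend removed it was 0 in L-RUN. The shares of all expressed genes called under these settings are not given here. These counts therefore show how the calls depend on the setting and are not a result about the 10 genes. No direction of a called gene turned under any alternative run. Differences below the threshold did turn, 3 of 50 after quantile normalization (2 of Hsp90ab1 and 1 of Hspb1), 2 of 50 with the length trend removed (Hspb1 and Hsph1) and 5 of 30 with LD and CE averaged (Hsp90aa1, Hsp90ab1 and Hsph1), none of them over 0.045 in size before. The medians of the 10 genes and the technical SD moved by less than 1 SD under all alternatives run. Of 50 member differences, centring on the median of expressed genes moved none by more than 1 technical SD, quantile normalization moved 20 and the length correction 10, and the baseline of LD and CE moved 15 of 30. The cause of these shifts was not tested. Unknown depth and single pooled libraries limit every value, and differences between mice could not be measured. No paired analysis was possible because each group has 1 library.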
